A study of Mus musculus with 3 samples.

Results

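NF-kB subunits and their inhibitors were followed in total RNA of the cytosolic fraction of macrophages grown from C57BL/6J bone marrow. The 10 genes of the family were taken by symbol, 10 of 55536 Ensembl genes measured: Rela, Rel, Relb, Nfkb1 and Nfkb2 for the subunits, Nfkbia, Nfkbib and Nfkbie for the cytoplasmic inhibitors, and Nfkbiz and Bcl3 for the nuclear members of the inhibitor family. The rule itself uses names and no measured value, though the family was picked with earlier results of these data known. The study gave 3 replicate libraries of 1 group, from primary cells harvested 10 minutes after Lipid A at 100 ng/ml, with ribosomal RNA depleted from 1 µg of RNA. Lipid A anchors lipopolysaccharide in the bacterial membrane and is the ligand of the receptor TLR4. No untreated cells were among the samples, so each value is a level at that time and not an induction. All 3 replicates carried 1 donor identifier, age and sex were not collected, and no label tells whether they were separate animals or cultures. The p-values below therefore cover only how far these samples spread, which may be technical. In such bulk RNA, fewer cells with a transcript and less of it per cell cannot be told apart.

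NF-kB proteins are dimers of subunits that share a Rel homology domain, which binds DNA. In resting macrophages most dimers are held in the cytoplasm by I-kappa-B proteins, whose ankyrin repeats cover the nuclear localisation signal. When TLR4 is engaged, the IKK kinase complex phosphorylates the inhibitors, which are then ubiquitinated and degraded, and the freed dimers enter the nucleus, where one of the genes they switch on is that of the inhibitor I-kappa-B-alpha.

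The libraries held 33825547, 54667365 and 43176007 counts on genes in replicates 1, 2 and 3. Levels are given as deposited transcripts per 1000000 (TPM). No library had any of the 10 macrophage markers below 1 TPM, and their summed levels were between 6583.8 and 7503.4 TPM. None of the 4 markers each of B cells, T cells, neutrophils, dendritic cells and stromal cells passed that level in all libraries, and the largest summed level of these lists in any library was 1.26 TPM, for dendritic cells. The neutrophil marker Ly6g had no count.

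Because several family members are themselves known targets of NF-kB, their promoters were searched for the kappa B consensus on both strands. The set of RefSeq promoters of build GRCm38.p6, with 250 bases before and 50 after each start, held 7 of the 10 members. Relb, Nfkb1 and Nfkbiz were not matched. A match was present in 5 of the 7, Rel, Nfkb2, Nfkbia, Nfkbie and Bcl3, and in none of the windows of Rela and Nfkbib. Of all promoters of that length 4.51% held a match (1480 of 32851), and of protein-coding genes averaging at least 1 TPM 6.1% did (459 of 7522). The members' promoters had a median GC content of 65.7%, against 61% for those expressed genes. A match is a description of letters and shows no binding here. The first sequence is the whole stretch upstream of the start of Nfkbia (chr12:55492648-55492897, minus strand), the inhibitor gene best known as a feedback target, and the others are windows of 30 bases around each match, all written 5′ to 3′ on the strand of the gene with the match in capitals.
Nfkbia upstream: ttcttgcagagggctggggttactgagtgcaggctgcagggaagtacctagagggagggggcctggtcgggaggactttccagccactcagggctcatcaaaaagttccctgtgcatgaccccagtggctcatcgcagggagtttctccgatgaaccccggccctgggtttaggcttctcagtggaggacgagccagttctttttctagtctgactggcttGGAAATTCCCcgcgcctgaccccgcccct
Nfkbia: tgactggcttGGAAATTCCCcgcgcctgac
Nfkbie: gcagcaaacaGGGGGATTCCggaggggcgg
Rel: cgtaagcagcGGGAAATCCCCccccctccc
Bcl3: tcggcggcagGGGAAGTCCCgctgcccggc
Nfkb2 upstream of the start: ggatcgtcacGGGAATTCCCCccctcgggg
Nfkb2 nearest the start: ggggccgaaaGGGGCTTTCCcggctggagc
Nfkb2 upstream of a later start: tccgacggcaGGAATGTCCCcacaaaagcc
Nfkb2 just after that start: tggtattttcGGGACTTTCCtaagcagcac

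The Nfkbia match began 29 bases upstream of the start (window chr12:55492657-55492686, minus strand) and the Nfkbie match 106 bases upstream (chr17:45555584-45555613, plus strand). In Rel the capitals hold overlapping matches that began 92 and 91 bases upstream (chr11:23771042-23771071, minus strand). The Bcl3 match began 2 bases downstream of the start (chr7:19822734-19822763, minus strand). Nfkb2 had 3 starts in the set and matches at 4 places. Its windows were chr19:46304688-46304717, with overlapping matches 39 and 38 bases upstream, chr19:46304716-46304745, 11 bases upstream, chr19:46305449-46305478, 236 bases upstream of the next start, and chr19:46305695-46305724, 10 bases downstream of that start and 225 upstream of the last, all on the plus strand. The stretches upstream of the earliest and the last of these starts lie largely or wholly inside annotated UTR (250 and 234 of 250 bases), since the gene is annotated from an earlier position, so these windows are not all outside the transcript. Nfkb2 was the member with the most places that matched, over the most starts.

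Levels of the subunit genes came next. Rela and Nfkb1, which encode the partners of the classical heterodimer, were the highest subunit transcripts, and Rel and Relb were the lowest. Rela (ENSMUSG00000024927.8, chr19:5637483-5648130 of mm10), whose product carries the main activating domain of that dimer, was at 19.37, 16.98 and 19.40 TPM in replicates 1, 2 and 3, a mean of 18.6 ± 1.39 TPM (SD, n = 3). On this TPM scale replicate 2 was the low library and the other 2 were nearly level. Nfkb1 (ENSMUSG00000028163.17, chr3:135584655-135691547) encodes a precursor that is processed to a DNA-binding subunit with no activating domain of its own. It was at 18.21, 17.06 and 17.84 TPM, a mean of 17.7 ± 0.587 TPM (SD, n = 3). Its range lay inside that of Rela, and the mean difference between them, 0.06 ± 0.06 on the log2(TPM + 1) scale, held in only 2 of 3 libraries.

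Nfkb2 (ENSMUSG00000025225.15, chr19:46304320-46312385) encodes the second precursor, which is cut to its mature form in the non-canonical pathway. Its levels of 11.50, 10.63 and 10.38 TPM averaged 10.8 ± 0.588 TPM (SD, n = 3), below every library of Rela and Nfkb1. Relb (ENSMUSG00000002983.17, chr7:19606217-19629438), the usual partner of the Nfkb2 product, was at 7.32, 6.30 and 5.93 TPM, a mean of 6.52 ± 0.720 TPM (SD, n = 3). Replicate 1 was the high library for both. Rel (ENSMUSG00000020275.9, chr11:23736847-23770970), which encodes c-Rel, the subunit needed for Il12b expression in macrophages, was at 6.60, 6.13 and 6.17 TPM, a mean of 6.30 ± 0.261 TPM (SD, n = 3). The ranges of Relb and Rel overlapped and replicate 3 put Rel above Relb. Of the summed TPM of the 5 subunit genes, Rela held 31.0% ± 1.39, Nfkb1 29.6% ± 0.560, Nfkb2 18.1% ± 0.635, Relb 10.9% ± 0.858 and Rel 10.5% ± 0.205 (SD, n = 3 each).

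Among the cytoplasmic inhibitors, Nfkbia was highest and Nfkbie lowest in every library. Nfkbia (ENSMUSG00000021025.8, chr12:55489410-55492647) encodes I-kappa-B-alpha, the inhibitor that is degraded and remade fastest. It stood at 17.78, 16.10 and 15.08 TPM, a mean of 16.3 ± 1.36 TPM (SD, n = 3), with replicate 3 lowest. Nfkbib (ENSMUSG00000030595.15, chr7:28758251-28767512), the gene of the more slowly degraded I-kappa-B-beta, was at 8.78, 8.79 and 8.90 TPM, a mean of 8.82 ± 0.0666 TPM (SD, n = 3). These 3 libraries were nearly level. Nfkbie (ENSMUSG00000023947.8, chr17:45555703-45563169) encodes I-kappa-B-epsilon, which also acts in delayed feedback, and was at 2.66, 2.01 and 1.63 TPM, a mean of 2.10 ± 0.521 TPM (SD, n = 3). Every library of Nfkbie differed visibly from the other 2, and none came near the level of Nfkbib. Of the summed inhibitor TPM, Nfkbia held 59.9% ± 0.983, Nfkbib 32.5% ± 2.36 and Nfkbie 7.65% ± 1.38 (SD, n = 3 each).

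The nuclear members bind NF-kB on DNA and can activate as well as repress. Bcl3 (ENSMUSG00000053175.17, chr7:19808462-19822770), which binds homodimers of the processed precursors, was at 7.83, 8.27 and 8.06 TPM, a mean of 8.05 ± 0.220 TPM (SD, n = 3). Nfkbiz (ENSMUSG00000035356.17, chr16:55811375-55838899) encodes I-kappa-B-zeta, an inducible protein needed for secondary genes such as Il6, and had the lowest mean of the family, with 1.97, 1.81 and 1.74 TPM and a mean of 1.84 ± 0.118 TPM (SD, n = 3). In replicate 3 Nfkbie was lower still. Bcl3 was above Nfkbiz in every library by several times. For Nfkbiz the deposited TPM is less certain than its replicates show: the deposited posterior mean was 3.89, 2.45 and 2.75 TPM, which averages above that of Nfkbie, and the upper bound of the deposited credibility interval reached 7.76, 3.80 and 4.84 TPM.

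**Figure D1:**
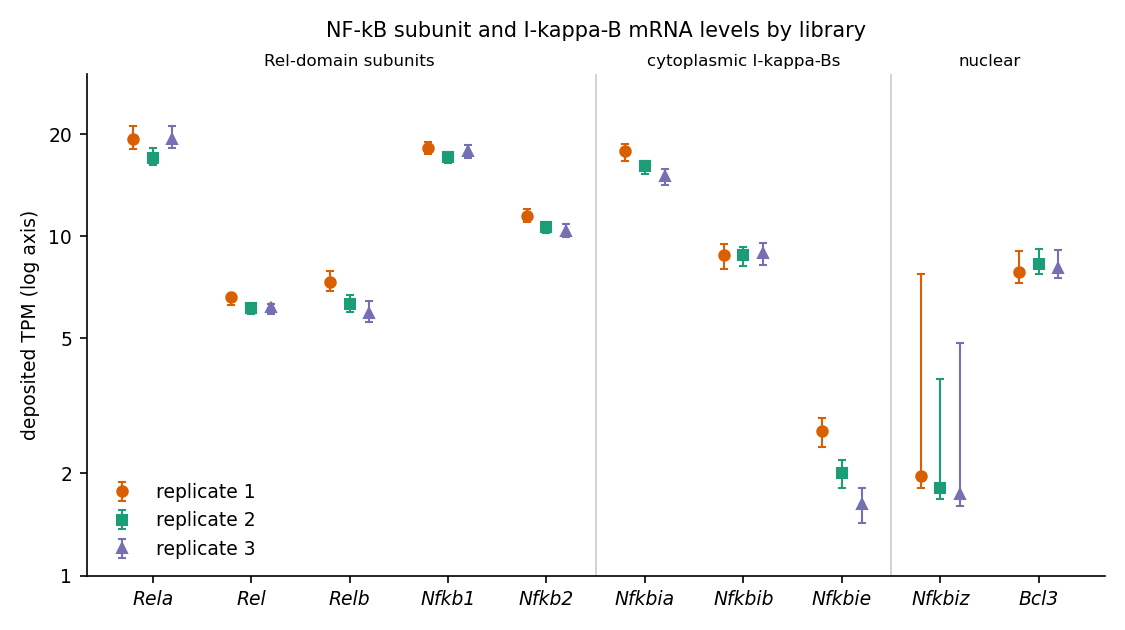
Deposited TPM (log axis) of each family member in the 3 libraries, by class; points are libraries and bars the deposited credibility interval, whose level is not given in the sources used here. Rela, Nfkb1 and Nfkbia lie at 15.08 to 19.40 TPM, Nfkbie and Nfkbiz at 2.66 TPM or less, and the long upper bars of Nfkbiz reach 7.76 TPM.

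Ordered by mean TPM the family ran Rela, Nfkb1, Nfkbia, Nfkb2, Nfkbib, Bcl3, Relb, Rel, Nfkbie, Nfkbiz. Of the 9 neighbouring pairs, 5 differed by more than their spread over the libraries. These were Nfkbia over Nfkb2 by 0.55 ± 0.04, Nfkb2 over Nfkbib by 0.27 ± 0.08, Nfkbib over Bcl3 by 0.12 ± 0.04, Bcl3 over Relb by 0.27 ± 0.16 and Rel over Nfkbie by 1.25 ± 0.20 on the log2(TPM + 1) scale (mean within-library difference ± SD, n = 3 each). The ranges overlapped for Rela and Nfkb1, Nfkb1 and Nfkbia, Relb and Rel, and Nfkbie and Nfkbiz. The family falls into a top of 3 genes whose ranges form a chain, a middle of 5 and a bottom of 2, with the widest step between Rel and Nfkbie. In a second quantification of the same libraries, Nfkbia had the highest mean TPM, but it exceeded Rela in replicate 1 alone. When that quantification was rescaled over protein-coding genes, Rela was again first, Nfkbia stood above Nfkb1 and Nfkbiz above Nfkbie.

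The family spanned low to upper-middle levels of the expressed genes. The median of the 10 members was 8.44 TPM, against 7.35 TPM for the 9387 protein-coding genes averaging at least 1 TPM. Rela stood at percentile 77.39 of those genes, Nfkbia at 74.24, Rel at 44.87, Nfkbie at 13.24 and Nfkbiz at 10.55. The deposited TPM is scaled over all entries, noncoding RNAs included. On TPM rescaled over protein-coding genes Rela averaged 74.8 ± 4.74, Nfkb1 71.3 ± 3.61, Nfkbia 65.9 ± 8.0 and Nfkbiz 7.42 ± 0.755 (SD, n = 3 each), in the same order. The genes closest to Rela in level over the 3 libraries were Stard3nl (19.30, 16.87 and 19.86 TPM), Slc29a1 (19.86, 17.15 and 19.18 TPM) and Aftph (18.81, 17.23 and 19.55 TPM), at distances of 0.0337, 0.0401 and 0.0461 on the log2(TPM + 1) scale among 9386 genes compared. Those closest to Nfkbia were Adar (17.08, 16.09 and 15.26 TPM), Sbno1 (18, 15.79 and 15.66 TPM) and Atxn2 (16.85, 16.26 and 15.00 TPM), at distances of 0.0571, 0.0599 and 0.0748. A distance below 0.1 was found for 25 of these genes around Rela and 6 around Nfkbia.

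On TPM, which corrects for transcript length, transcripts of subunits outnumbered those of inhibitors. The 5 subunit genes summed to 63.0, 57.1 and 59.72 TPM in replicates 1, 2 and 3, a mean of 59.9 ± 2.96 TPM (SD, n = 3). The 3 cytoplasmic inhibitors summed to 29.22, 26.9 and 25.61 TPM, and Nfkbiz and Bcl3 together to 9.8, 10.08 and 9.8 TPM. The inhibitor sum was 46.38%, 47.11% and 42.88% of the subunit sum, a mean of 45.5% ± 2.26 (SD, n = 3), and replicate 3 was the low library. On estimated counts, which grow with transcript length, the inhibitors were 19.7% of the subunits. The precursors made by Nfkb1 and Nfkb2 also hold dimers back through ankyrin repeats, and both were counted as subunits.

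The libraries were then compared with each other, gene by gene, on counts scaled to a common library size by TMM (CPM). Relb, Rel, Nfkb1, Nfkb2, Nfkbia, Nfkbie and Nfkbiz differed between libraries beyond counting error, and Rela, Nfkbib and Bcl3 did not pass the test. All 7 that passed were highest in replicate 1 and lowest in replicate 3. The 7 of 10 members stand against 49.2% of all genes tested (6645 of 13494; chi-square test of counts, Benjamini-Hochberg adjusted over all genes) and 53.7% of expressed protein-coding genes, so a difference between libraries was common. Genes that passed and were highest in replicate 1 made up 19.9% of all genes tested and 40.5% of those that passed. Those that were also lowest in replicate 3 made up 26.3% of those that passed.

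Nfkbie varied most, at 11.4, 8.59 and 6.34 CPM in replicates 1, 2 and 3, so the highest library was 1.79 times the lowest (chi-square test, adjusted p = 5e-12). Relb was at 27.3, 23.4 and 20.4 CPM, a ratio of 1.34 (adjusted p = 1.83e-08 in the same chi-square test). Nfkbia was at 44.6, 41.7 and 35.2 CPM, a ratio of 1.27 (adjusted p = 7.73e-10). In each of these genes replicate 2 lay between the others. The highest library was 1.25 times the lowest for Nfkbiz (adjusted p = 0.0103), 1.20 times for Nfkb2 (adjusted p = 1.61e-08), 1.17 times for Rel (adjusted p = 7.67e-09) and 1.10 times for Nfkb1 (adjusted p = 0.0019). It was 1.08 times for Nfkbib (adjusted p = 0.373), 1.05 times for Rela (adjusted p = 0.231) and 1.03 times for Bcl3 (adjusted p = 0.828).

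**Figure D2:**
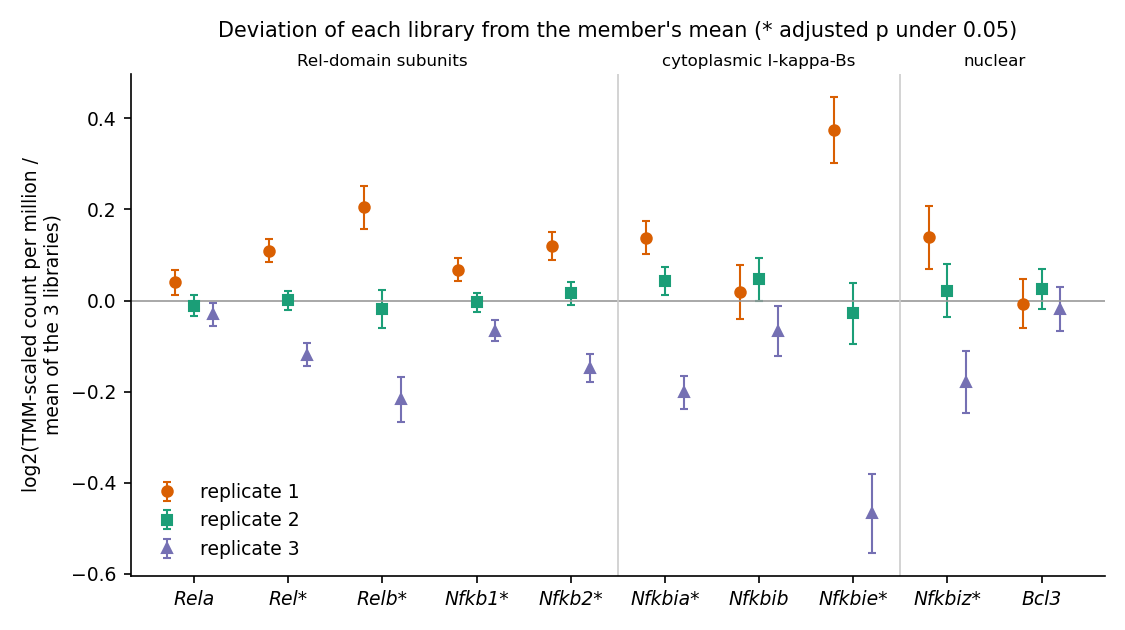
Deviation of each library from the member's mean, as log2 of TMM-scaled CPM; points are libraries, bars the counting error of 1 SD, and a star marks an adjusted p under 0.05 in the chi-square test. Replicate 1 is above replicate 3 in all 7 starred genes, with the widest gap in Nfkbie (11.4 against 6.34 CPM) and almost none in Bcl3.

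A coefficient of variation between libraries beyond counting error was estimated per gene by edgeR, which draws each gene toward the other genes. It was 21.8% for Nfkbie, 12.5% for Nfkbiz and 11.5% for Relb. The common value was 14.36% and the median per gene 10.88% over all genes tested. The median was 8.49% for the members and 8.14% for expressed protein-coding genes. For the other members it ran between 6.02% for Rela and 9.57% for Nfkbia. These estimates are not the observed spread, which was 8.76 ± 2.51 CPM for Nfkbie and 77.1 ± 1.95 CPM for Rela (SD, n = 3 each). The median ratio of highest to lowest library was 1.188 for the members, 1.16 for all genes tested and 1.117 for expressed protein-coding genes. Replicate 1 was the highest library for all 7 genes under each of 6 scalings, but on the deposited TPM, whose median over expressed genes was shifted by -0.126 (log2) in replicate 1 relative to replicate 3, only 5 of the 7 were lowest in replicate 3; Rel and Nfkb1 were lowest in replicate 2. Without replicate 1, where 27.5% of genes tested passed, Nfkb1 (adjusted p = 0.123, chi-square test) and Nfkbiz (adjusted p = 0.0768) lost the call. Without replicate 3, where 34.4% passed, Nfkb1 (adjusted p = 0.0808), Nfkbia (adjusted p = 0.112) and Nfkbiz (adjusted p = 0.333) lost it and 4 members remained, Rel, Relb, Nfkb2 and Nfkbie.

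The levels of 2 nuclear RNAs were lowest in replicate 3, though Neat1 was nearly level in replicates 1 and 2. Malat1, an RNA retained in nuclear speckles, was at 597, 383 and 304 TPM in replicates 1, 2 and 3, and Neat1 at 41.7, 41.6 and 33.7 TPM. The median share of retained intron transcripts over all genes was 2.27%, 1.35% and 1.05%. Their part in the differences between libraries was not tested.

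Each member was next split into its annotated transcripts. Most of the family was made by 1 leading coding transcript per gene. Rel has a single annotated transcript of 7466 bases. Nfkbib-202 held 99.1% ± 0.521 of the TPM of its gene, Nfkbia-201 98.0% ± 1.02, Nfkbiz-204 92.4% ± 0.498, Nfkbie-201 92.0% ± 1.80, Relb-202 89.5% ± 1.92, Rela-201 86.6% ± 5.25 and Bcl3-201 78.0% ± 5.67 (SD, n = 3 each). The genes of the precursors were the mixed ones. Nfkb1-206 held 47.4% ± 0.625, Nfkb1-203 21.9% ± 2.96 and Nfkb1-201 17.5% ± 1.55, while Nfkb2-201 held 57.9% ± 4.33, Nfkb2-202 26.5% ± 1.94 and Nfkb2-206 10.3% ± 0.989 (SD, n = 3 each).

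Some transcripts rested on the quantification used. Nfkb1-201 held 31.8% and Nfkb1-203 11.5% of Nfkb1 in the second quantification, against 17.5% and 21.9% in the first, so their order turned. Bcl3-203 held 7.25% of Bcl3 in the second, against 20.8% in the first. Nfkb1-207, annotated as a target of nonsense-mediated decay, had 0 in all libraries of the second quantification, against 11.7%, 9.92% and 7.79% of Nfkb1 in the first. Relb-203, which differs little in length from Relb-202, had 0.377%, 0.784% and 59.0% of Relb in the second quantification, against 3.41%, 0 and 2.70% in the first. That jump appeared in replicate 3 alone. Nfkbia-202, a retained intron transcript of 701 bases, had 25.9%, 2.16% and 6.14% in the second quantification, against 2.93%, 0.931% and 2.26% in the first, so replicate 1 was the high library in both. Shares of single transcripts are therefore less certain than gene levels.

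In the first quantification Rela was the member with the largest retained intron share. Its transcript Rela-203, of 786 bases, held 17.5%, 6.89% and 13.4% of the Rela TPM in replicates 1, 2 and 3, a mean of 12.6% ± 5.35 (SD, n = 3). Replicate 2, the lowest in Rela TPM, was also the lowest in this share. Rela-203 was at 3.39, 1.17 and 2.60 TPM, while the leading coding transcript Rela-201 was nearly level at 15.91, 15.69 and 16.55 TPM. On CPM Rela was at 79.3, 76.5 and 75.5, with replicate 3 lowest. In Nfkb1 such transcripts held 6.16%, 2.11% and 2.07%, and in Nfkbie 6.37%, 3.50% and 1.84%. Among the members, 6 were at 5 TPM or more with an annotated retained intron transcript. In the first quantification 1 of the 6 exceeded 10%, against 14.9% of all such genes (576 of 3870). All 6 were highest in replicate 1, as were 2745 of the 3870. In the second quantification Rela-203 held 23.0%, 13.7% and 14.0% of Rela, a mean of 16.9%. Nfkbia averaged 11.4% there and was above Rela in replicate 1, at 25.9%. No reads over introns were looked at, so these shares do not show that an intron was kept.

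**Figure D3:**
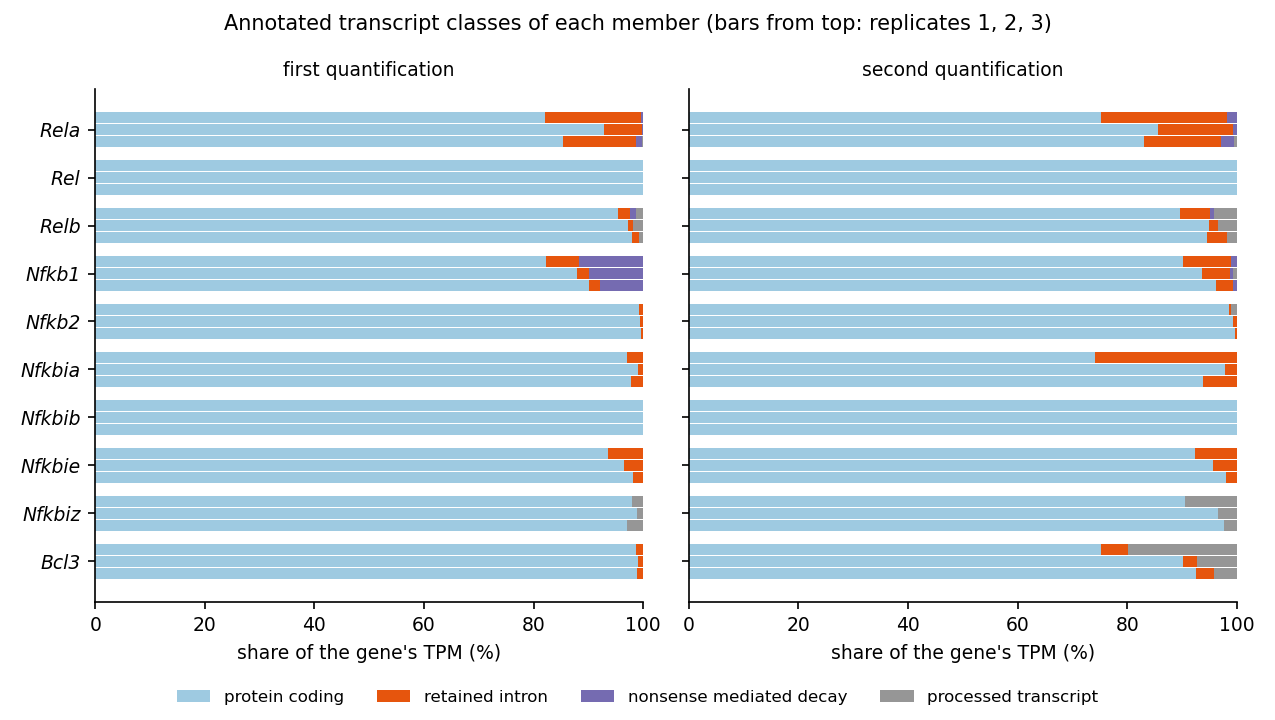
Share of each member's TPM by annotated transcript class in the first (left) and second (right) quantification, with bars from top to bottom for replicates 1, 2 and 3. Coding transcripts fill most bars, the retained intron share of Rela reaches 17.5% in the first quantification, and the decay class of Nfkb1 seen there (11.7% in replicate 1) is nearly absent in the second.

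Gene levels in the second quantification stayed close to those in the first. With each rescaled over protein-coding genes, 0 of the 8 members at 5 TPM or more lay apart by over 1.5 times, against 4.34% of all such genes (268 of 6176). The largest differences, second over first, were -0.21 ± 0.02 for Nfkb1, 0.18 ± 0.10 for Nfkbiz and 0.16 ± 0.14 for Nfkbia on the log2 scale (SD, n = 3 each). That of Nfkb1 was alike in every library, while that of Nfkbia was 0.32 in replicate 1, the library with the large Nfkbia-202 share. Bcl3 averaged 0.03 ± 0.14, and the other 6 members averaged within 0.06 of 0.

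**Figure D4:**
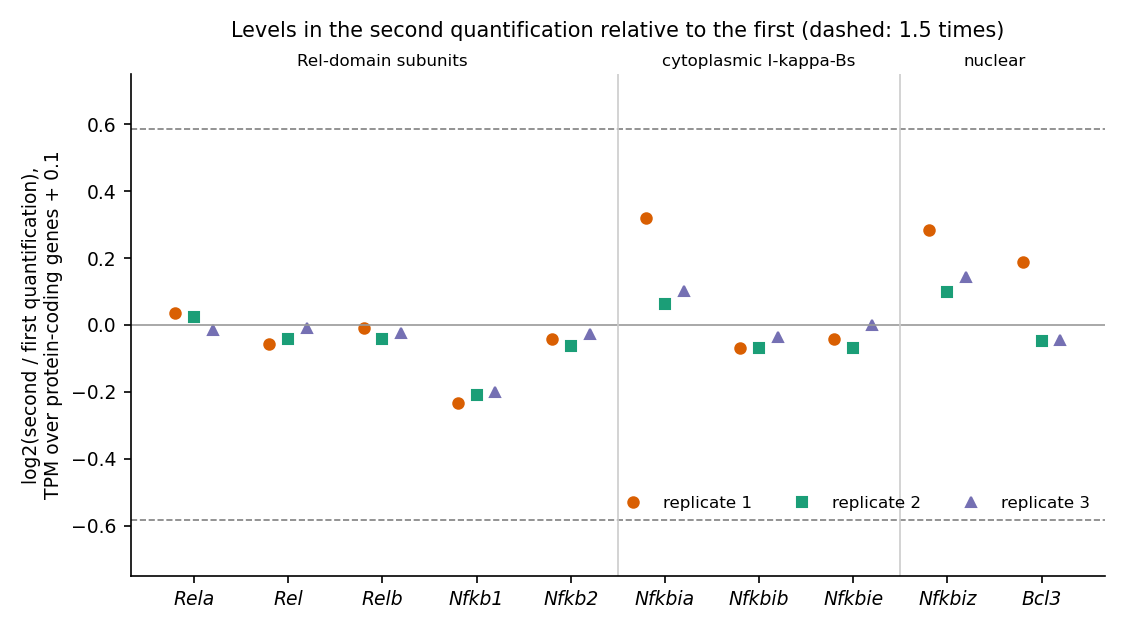
Log2 ratio of the second to the first quantification for each member and library, both as TPM over protein-coding genes with 0.1 added; dashed lines mark 1.5 times. No point crosses a line, Nfkb1 lies below 0 in all libraries (mean -0.21) and Nfkbia is highest in replicate 1 (0.32).

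Other genes lie across some members, and the sources used here do not say whether counting used strand. Sirt2, a deacetylase gene on the opposite strand at the 5′ end of Nfkbib, was at 40.66, 39.97 and 41.27 TPM, well above Nfkbib itself. Nfkb2 overlaps Psd, at 2.34, 1.61 and 2.04 TPM, and AC114539.1, a noncoding gene at its promoter, at 4.21, 3.88 and 3.25 TPM, both on the opposite strand. Antisense Gm16174 within Bcl3 was at 0.97, 0.68 and 0.45 TPM. The levels of Nfkbib and Nfkb2 carry this uncertainty.

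The members also differ in the 3′ UTR of the leading transcript, where the pentamer ATTTA is a core of AU-rich elements that shorten mRNA life. Rel has the longest, with 5421 bases and 12 ATTTA, followed in count by Nfkbiz with 4 in 1358 bases and Nfkbia with 2 in 515 bases. Nfkb2 has 1 in 131 bases, and Rela, Relb, Nfkb1, Nfkbib, Nfkbie and Bcl3 have 0. The annotated 3′ UTRs of Nfkb1 and Nfkbib are only 80 and 74 bases in these transcripts, so a count of 0 there says little. Other transcripts of these genes were not counted. A count of 3 or more was found in 2 of the 10 members, against 33.6% of expressed protein-coding genes (3125 of 9296).

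The genes around the family were described from lists of pathway roles. The 8 genes listed for upstream kinases and their regulatory or adaptor subunits all reached at least 1 TPM in each library and had a median of 6.957 TPM. The highest were Tab2, an adaptor of TAK1, at 24.36, 21.65 and 23.44 TPM, Ikbkb, the kinase that phosphorylates I-kappa-B-alpha, at 15.82, 15.35 and 15.32 TPM, and Chuk, the other catalytic IKK subunit, at 8.64, 8.15 and 8.22 TPM. Map3k14, the kinase of the non-canonical pathway, at 2.91, 2.37 and 2.55 TPM, and Tab3 at 1.92, 2.33 and 2.36 TPM were lowest. Between libraries 5 of the 8 passed the chi-square test, all highest in replicate 1, among them Ikbkb and Chuk. The background for this and the lists below is that 49.2% of all genes tested passed. Of those that passed, 40.5% were highest in replicate 1. Here and in the lists below the highest library was taken on CPM and can differ from that on the TPM printed.

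Genes that ubiquitinate and remove I-kappa-B were higher, with a median of 31.04 TPM and all 10 reaching at least 1 TPM in each library. The polyubiquitin gene Ubb was at 232.46, 186.62 and 212.45 TPM, the conjugating enzyme Ube2d3 at 92.34, 88.65 and 100.15 TPM and the unfolding ATPase Vcp at 55.36, 61.14 and 70.52 TPM. Btrc, which encodes an F-box protein that recognises phosphorylated I-kappa-B, was lowest at 2.57, 2.61 and 2.70 TPM, below the conjugating enzyme Ube2d1 at 7.84, 7.02 and 8 TPM. Fbxw11, the other F-box gene of this list, was higher, at 14.3, 14.33 and 14.83 TPM. Of the 10, 6 passed the test between libraries, and these were highest in replicate 1 for 2 genes, replicate 2 for 1 and replicate 3 for 3.

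Among 14 modulators and other I-kappa-B-like genes, 12 reached at least 1 TPM in each library, and the median was 5.095 TPM. Tnip1, a binding partner of the deubiquitinase A20, was at 18.19, 18.50 and 18.41 TPM, the kappa-B-Ras gene Nkiras2 at 14.73, 14.53 and 15.93 TPM and Commd1, which promotes ubiquitination of RelA, at 10.14, 12.19 and 15.51 TPM. Nkiras1 at 0.82, 1.07 and 1.37 TPM and the repressor gene Nkrf at 0.96, 0.88 and 0.99 TPM were lowest. Of these 14, 9 passed the test, highest in replicate 1 for 3, replicate 2 for 2 and replicate 3 for 4.

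All 9 co-activator genes reached at least 1 TPM in each library, with a median of 22.34 TPM. Rps3, a ribosomal protein also reported to bind RelA, was at 74.26, 81.72 and 77.86 TPM, the elongation kinase gene Cdk9 at 28.04, 27.56 and 30.26 TPM and the acetyltransferase gene Ep300 at 24.99, 26.87 and 26.81 TPM. Ncoa1 at 7.12, 6.97 and 7.02 TPM and Kat2b at 6.65, 5.11 and 5.47 TPM were lowest. On CPM 6 of the 9 passed the test, 5 of them highest in replicate 1 and Rps3 in replicate 2. Ep300 was among the 5, at 268, 254 and 266 CPM, though on TPM replicate 1 was its lowest library.

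Of 35 target genes outside the family, 27 reached at least 1 TPM in each library, and the median was 11.38 TPM. The highest were Slfn2, a Schlafen gene, at 135.64, 138.27 and 128.43 TPM, the chemokine gene Ccl3 at 80.84, 80.11 and 85.62 TPM and Tnfaip2 at 83.11, 76.96 and 78.03 TPM. Il6 was at 0, 0.01 and 0.03 TPM and Ptx3 had no count. At this depth 3 counts on 1000 effective bases correspond to 0.045, 0.0294 and 0.0395 TPM in replicates 1, 2 and 3, so Il6 lay below what could be measured. Of 32 targets tested, 24 passed (75%), against 49.2% of all genes tested. These were highest in replicate 1 for 13, replicate 2 for 6 and replicate 3 for 5. Among all genes that passed, 40.5% were highest in replicate 1. The targets did not share 1 highest library, as the 7 family members and the 5 kinase-list genes that passed did. The difference between these lists was not tested.

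**Figure D5:**
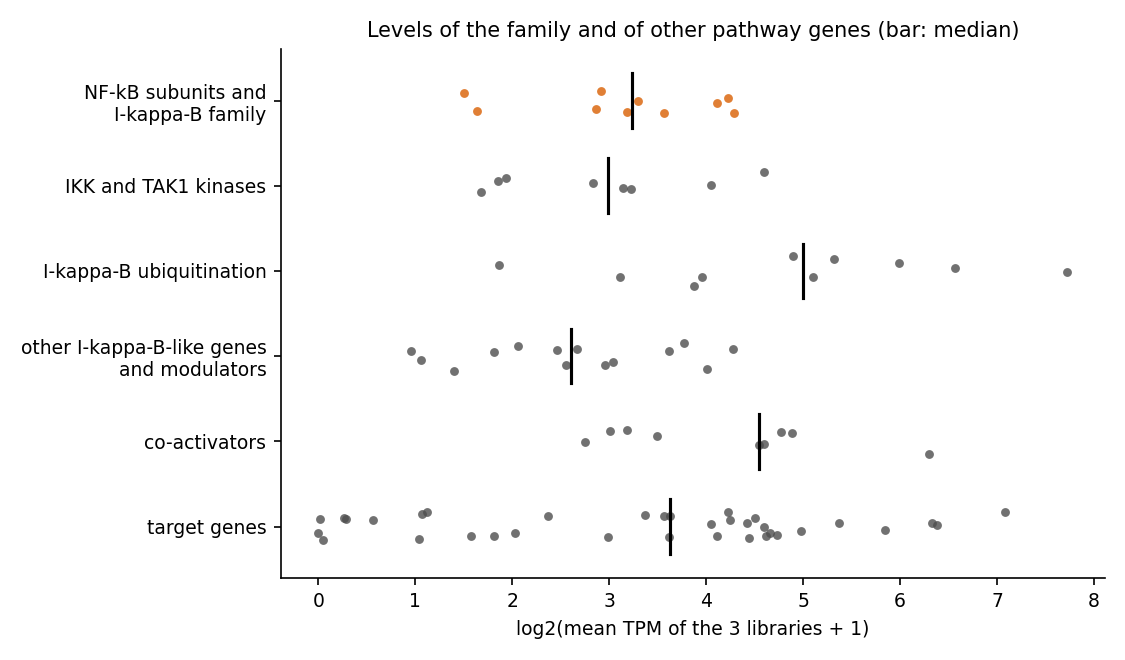
Mean level of each gene over the 3 libraries, as log2(TPM + 1), for the family (top row) and the lists of pathway genes; points are genes and bars medians. The family median (8.44 TPM) lies near that of the kinases and their partner subunits (6.957 TPM). It lies below those of the ubiquitination genes (31.04 TPM) and co-activators (22.34 TPM), and the targets span from 0 to the level of Slfn2.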

How the data were processed

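Total RNA of the cytosolic fraction was measured in 3 libraries of 1 group. Gene tables and a first transcript table hold expected counts and TPM, which the authors obtained from reads aligned to the mm10 transcriptome (GENCODE M21), per the file headers and accompanying notes, and a percent of the gene's TPM for each transcript, deposited by the authors. A second transcript table holds estimated counts and TPM, deposited by the authors from the reads directly. Not given in the sources used here are the aligner, the quantifiers, their versions, the read layout and the strandedness. Entries that name no gene (0.449%, 0.203% and 0.141% of counts in replicates 1, 2 and 3) entered neither the library sizes nor the tests, though the TPM scale includes them. All 55536 gene identifiers matched the annotation, and 86 genes absent from the second table were set to 0 there.

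Levels and transcript shares were computed from the deposited TPM. Neighbours in the order of levels were said to differ where their ranges did not overlap and the mean within-library log2(TPM + 1) difference exceeded its SD. Rounded expected counts of 13494 genes whose counts summed to at least 30 were compared between libraries by a chi-square test against TMM effective library sizes, with Benjamini-Hochberg adjustment at 0.05 over all genes. The dispersion came from an intercept-only edgeR fit, moderated over genes, and its square root is given as the coefficient of variation. Quantifications were compared with 0.1 added. The count test and the dispersion were tested on simulated data. Counting error alone underlies the chi-square test and the limit of 3 counts. The tools were R 4.3.3 with DESeq2 1.42.0 and edgeR 4.0.16, and Python 3.11.15 with scipy 1.17.1, pandas 2.3.3, numpy 2.4.6 and matplotlib 3.10.9.

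The members and gene lists were chosen with earlier results of these data known. All 10 members are named, with the 3 protein-coding genes nearest to Rela and to Nfkbia in log2(TPM + 1) and the highest 3 and lowest 2 genes of each list. The overlapping genes, Malat1 and Neat1 were chosen outside this rule, and a planned search of protein features was not run because no protein sequences were used here. Alternatives varied the scaling, the filter, the quantification, the pseudocount, the point estimate and the libraries.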

Additional observations from a re-analysis of the deposited data

How the results depend on the processing

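The median member level was 8.44 TPM. It was 4.0 TPM in the second quantification, 34.0 when TPM was rescaled over protein-coding genes, 33.7 when the second quantification was rescaled in the same way, an alternative chosen after seeing the data, 32.1 as TMM-scaled CPM, and 8.39 to 8.51 TPM when each replicate was left out. The 5 neighbouring pairs beyond their spread became 1 in the second quantification and 3 after rescaling it, and 6 without any 1 replicate. Before rescaling, the second quantification put every member far higher in replicate 1. Rela, for example, was at 14.4, 6.57 and 6.09 TPM there in replicates 1, 2 and 3, which widened the ranges compared. The 7 members that differed between libraries became 4 to 7 without 1 replicate, lowest without replicate 3, where fewer samples were compared. Of all genes tested, 27.5%, 40.9% and 34.4% passed without replicates 1, 2 and 3 in turn. Total counts gave 8, adding Rela (chi-square test, adjusted p = 0.00512), where 52% of all genes tested passed. The second quantification gave 6, losing Nfkb1 (chi-square test, adjusted p = 0.0678), near the 55.5% of all genes tested that passed there. Members called were 7 each with DESeq2 size factors (49.2% of all genes tested), no filter (31.7%), a summed count of 300 or more (54.3%) and the deposited posterior variance added (47.1%). That last setting could hardly change the calls of the members. Their deposited posterior SD was 0 in all libraries, except for Nfkb2 (4.4, 5.54 and 4.1 counts) and Nfkbib (0, 0 and 0.33). The median coding share was 98.2%, against 94.5% in the second quantification, and 97.8% to 98.5% without 1 replicate. The inhibitor sum was 45.5% of the subunit sum, 50.6% in the second quantification, 19.7% on estimated counts and 44.6% to 46.7% without 1 replicate. No member lay apart between quantifications by over 1.5 times in any of 3 other settings. Except on estimated counts, which do not correct for length, the cause of these shifts was not tested. No paired analysis was possible because the samples form 1 group.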
